A study of Mus musculus with 2 samples.

Results

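The 10 genes described here are genes best known from cartilage, measured in the wall of the mouse aorta. They were chosen by name, as every probe that the array design names for Cytl1, Sox9, Sox5, Sox6, Comp, Chad, Matn3, Hapln1, Acan or Prg4, with Cytl1 written there as Cyt1 and Acan as Agc1. The arrays held 19 such probes of 41150 in all, and 9 of the 10 genes were among the 21366 genes or transcripts with a usable signal. The choice was made with the large difference of Cytl1 between the regions already known, so all values below are a description and carry no test.

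The study set an atherosclerosis-prone region, labelled aortic arch and dissected with the aortic root and the adjoining 2 mm of thoracic aorta, against a resistant region, the central thoracic aorta (the following 6 mm). Both came from the same 6 wild-type C57Bl/6 mice, an inbred strain, 3 males and 3 females aged 16 weeks, whose aortas had been perfused with Triton X-100 to strip the endothelium. RNA of the mice was pooled per region, and the same 2 pools were hybridised to 2 dual-colour Agilent arrays with the dyes exchanged. The arch pool carried Cy5 on array 1, while array 2 had it in Cy3. Each region is therefore 1 biological sample, a pool whose tissue includes everything left in the dissected wall, and the arrays give technical error only.

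Cartilage is built by chondrocytes under the transcription factor Sox9, with its partners Sox5 and Sox6, which switch on genes of the matrix. In that matrix aggrecan (Acan), a large sulfated proteoglycan, is tied to hyaluronan by the link protein Hapln1, while Comp, Chad and Matn3 connect collagen fibrils with other matrix proteins and with cells. Prg4, lubricin, coats gliding surfaces, and Cytl1 is a small secreted protein known from chondrocytes. Outside cartilage, several of these genes are used in heart valves and the aortic root, and in smooth muscle that takes on chondrocyte features in calcifying arteries.

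The sequences just before the transcription starts of Cytl1, which differed most among the 10 genes, and of 3 matrix genes that differed little (Chad, Acan and Hapln1) are shown for comparison. Each is the 250 bases before the start, 5′ to 3′ on the gene's strand, from RefSeq (build GRCm38.p6). Capitals mark 4 motifs, each searched on both strands. The first, ACAAT, is a core recognised by Sox proteins. The motif TATAAA is a core promoter element that sets where transcription starts. The so-called GC box, searched as GGGCGG, is bound by Sp1 and its relatives. The last, CCAAT, is bound by the factor NF-Y. No motif overlaps a different one in these windows.
Cytl1 (chr5:37735269-37735518, plus strand): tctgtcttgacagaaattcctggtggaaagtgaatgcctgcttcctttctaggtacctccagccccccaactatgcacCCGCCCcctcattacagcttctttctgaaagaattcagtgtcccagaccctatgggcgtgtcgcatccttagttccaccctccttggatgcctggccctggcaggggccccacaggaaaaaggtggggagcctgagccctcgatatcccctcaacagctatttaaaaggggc
Chad (chr11:94564797-94565046, plus strand): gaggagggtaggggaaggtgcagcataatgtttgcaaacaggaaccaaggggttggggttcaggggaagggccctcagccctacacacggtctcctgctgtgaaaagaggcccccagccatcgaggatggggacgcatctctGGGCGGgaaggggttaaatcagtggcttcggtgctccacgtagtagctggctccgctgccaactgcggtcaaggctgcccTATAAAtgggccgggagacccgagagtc
Acan (chr7:79052976-79053225, plus strand): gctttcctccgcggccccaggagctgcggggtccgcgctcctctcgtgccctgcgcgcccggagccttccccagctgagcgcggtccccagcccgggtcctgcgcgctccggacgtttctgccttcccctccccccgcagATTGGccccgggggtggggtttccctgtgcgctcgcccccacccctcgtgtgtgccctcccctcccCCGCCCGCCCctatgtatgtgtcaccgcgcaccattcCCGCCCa
Hapln1 (chr13:89540386-89540635, plus strand): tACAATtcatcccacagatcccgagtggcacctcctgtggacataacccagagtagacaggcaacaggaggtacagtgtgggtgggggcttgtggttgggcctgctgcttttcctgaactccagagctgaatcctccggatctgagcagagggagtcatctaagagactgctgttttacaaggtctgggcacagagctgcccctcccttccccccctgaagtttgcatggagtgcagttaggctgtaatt

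The Cytl1 window held 1 GC box, 172 bases before the start, and no other motif of the set. The Chad window held TATAAA 28 bases before the start and 1 GC box. The Acan window held 3 GC boxes, of which 2 overlap, and 1 CCAAT, and 74.4% of its bases were G or C, against 54.8% for Cytl1. The Hapln1 window held 1 ACAAT at its far end, 249 bases before the start. RefSeq's table gave windows for 7 of the 10 genes, and Sox9, Comp and Prg4 had none. Of the 7 genes, 3 had ACAAT in at least 1 window (Sox5, Sox6 and Hapln1), among 12 windows of which 6 were alternative starts of Sox6. Counted by window, 5 of the 12 held ACAAT, 2 TATAAA, 5 the GC box and 4 CCAAT. Over all 32851 windows of the same length, 27.7% held ACAAT, 12.4% TATAAA, 32.7% the GC box and 33.8% CCAAT. These matches describe the letters only, and a window without a motif says nothing of the factor.

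Signals near the level of the negative control spots set what could be measured. Those controls kept 10.3 (Cy5) and 27.1 (Cy3) intensity units above the local background on array 1, and 9.90 (Cy5) and 25.9 (Cy3) on array 2. By the scanner software's flag, 71.2% to 81.5% of the gene spots in a channel stood well above background. Values below are signals above local background in intensity units, or log2 ratios of arch over central thoracic aorta after background correction and loess, and ± gives how far each array lay from their mean. The ratios are shrunk for dim probes, because 50 units were added to every corrected signal. The word called is used of a gene that differed by 1.5-fold (0.58 on the log2 scale) or more, in the same direction, on each array. Each gene is represented by the brightest of its usable probes, usable meaning that at least 1 of the regions was well above background on array 1 and again on array 2. Smooth muscle markers, all 8 measured, summed to 173330 and 124784 units in the arch, against 144732 and 184379 units in the thoracic aorta, and the probes of Acta2 and Tagln among them were saturated, which caps these sums. Endothelial markers, 7 measured, summed to 370 and 484 units in the arch, against 417 and 385 units in the thoracic aorta.

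**Figure D1:**
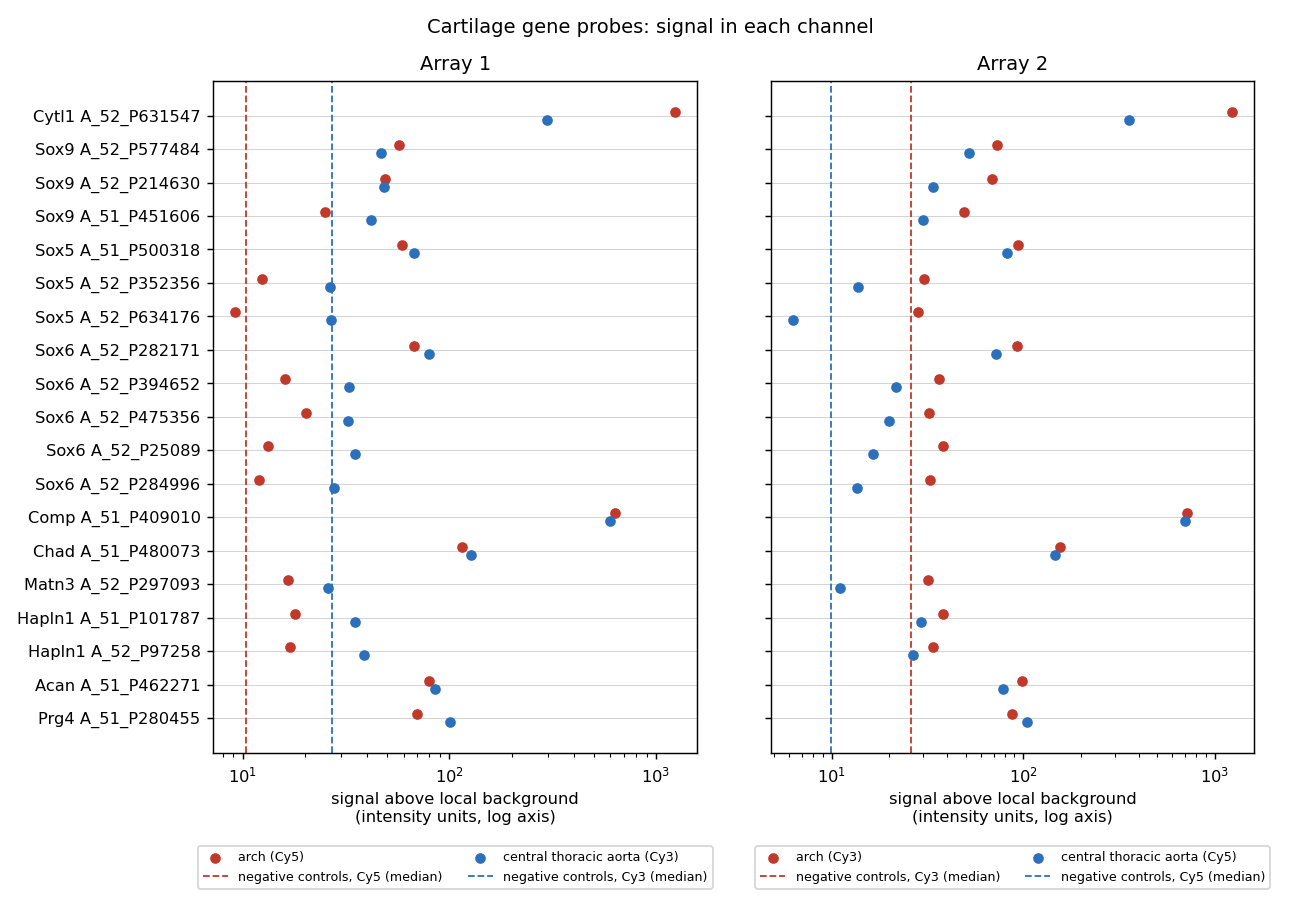
Signal above local background (intensity units, log axis) of the 19 probes in the arch (red) and the central thoracic aorta (blue) on each array. Dashed lines are the medians of the negative control spots in the same channel. Cytl1 is far to the right in the arch on both arrays, Comp is bright and nearly equal in the regions, and the Matn3 probe and the dim Sox5 and Sox6 probes lie closest to the lines.

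Cytl1 was the only one of the 9 measured genes to meet the 1.5-fold rule. Its probe gave 1236 and 1233 units in the arch pool on arrays 1 and 2, against 296 and 355 units in the thoracic pool. The regions did not overlap in either dye order, and all 4 channels were well above background. The log2 ratio was 1.95 on array 1 and 1.96 on array 2, with a mean of 1.95 ± 0.0023, or 3.87-fold higher in the arch. Over all genes, 0.257% were called higher in the arch and 0.229% lower, so 1 of 9 is read beside a background of 0.257%, with the choice of Cytl1 already known. Fewer cells that make a transcript and less of it per cell cannot be told apart in such pools.

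Ranked by mean ratio over 16251 named genes with good signal in both regions, Cytl1 stood at place 2. The gene above it was Myl7, the atrial myosin light chain (2.33 ± 0.012), and those next below were 2210407C18Rik (1.70 ± 0.05), Ren1, renin (1.68 ± 0.04), and Tnnt2, cardiac troponin T (1.59 ± 0.03). Likeness here is nearness of the mean ratio over 2 arrays of the same pools and says nothing more.

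The transcription factor Sox9, which directs chondrocyte formation, was nearer to equal than Cytl1. Its mean ratio still stood at place 311 from the highest over 21366 genes. Its brightest probe (A_52_P577484) gave 56.9 and 73.4 units in the arch pool, against 46.4 and 52.2 units in the thoracic pool. Both arch values lay above both thoracic values. The log2 ratio was 0.43 on array 1 and 0.19 on array 2, with a mean of 0.31 ± 0.12, which did not meet the rule.

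Another Sox9 probe (A_52_P214630) gave 48.7 and 68.8 units in the arch, against 48.2 and 33.7 units in the thoracic aorta, with a log2 ratio of 0.34 ± 0.06. The dimmest (A_51_P451606) gave 25.0 and 49.2 units in the arch, against 41.6 and 29.9 units in the thoracic aorta, and 0.06 ± 0.06. At this dimmest probe the Cy3 channel was the brighter one on each array, whichever region it held. With the scanner software's own ratios, made without the 50 units added here, the probes measured 0.74 ± 0.31, 0.96 ± 0.09 and 0.14 ± 0.15. By those ratios A_52_P214630 met the 1.5-fold rule (0.87 and 1.05 on the arrays), beside 0.655% of all usable probes called higher in the arch and 0.524% lower. It also met the rule after loess with no added constant (0.63 and 0.95). There 0.548% of all genes were called higher, which is a share of genes at their brightest usable probe and not of probes. The other Sox9 probes met it in neither way. By the loess ratios with the 50 units added, 0.21% of usable probes were called higher and 0.183% lower, and Cytl1 supplied the only such probe of the 13 usable ones.

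Sox5 and Sox6, the partners of Sox9, were each read at their brightest probe. Of Sox5 1 probe was usable and of Sox6 2, and their other probes were too dim. The Sox5 probe gave 59.2 and 94.4 units in the arch, against 67.0 and 82.2 units in the thoracic aorta, a log2 ratio of 0.11 ± 0.0068. By the scanner software's ratios this Sox5 probe was further apart on the arrays (0.36 and 0.15), at 0.25 ± 0.11. The brightest Sox6 probe gave 67.3 and 92.8 units in the arch, against 79.2 and 71.9 units in the thoracic aorta, a ratio of 0.13 ± 0.07. Neither gene met the rule, and before normalisation the Cy3 channel was the brighter on each array for both, whichever region it held.

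The remaining 2 Sox5 probes were well above background in no channel, and measured 0.03 and 0.07. The other 4 Sox6 probes, of which A_52_P475356 was usable, were well above background in 0 to 3 of the 4 channels and lay between -0.00097 and 0.05. By the scanner software's ratios each of these 4 had opposite signs on the arrays, the widest apart being A_52_P25089 with -0.66 on array 1 and 0.88 on array 2. Of all 19 probes, 5 had a larger difference between the dyes than between the regions. A further probe that the design names A730017D01Rik matched Sox5 by its accession, was well above background in neither region, and is not counted among the 19.

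**Figure D2:**
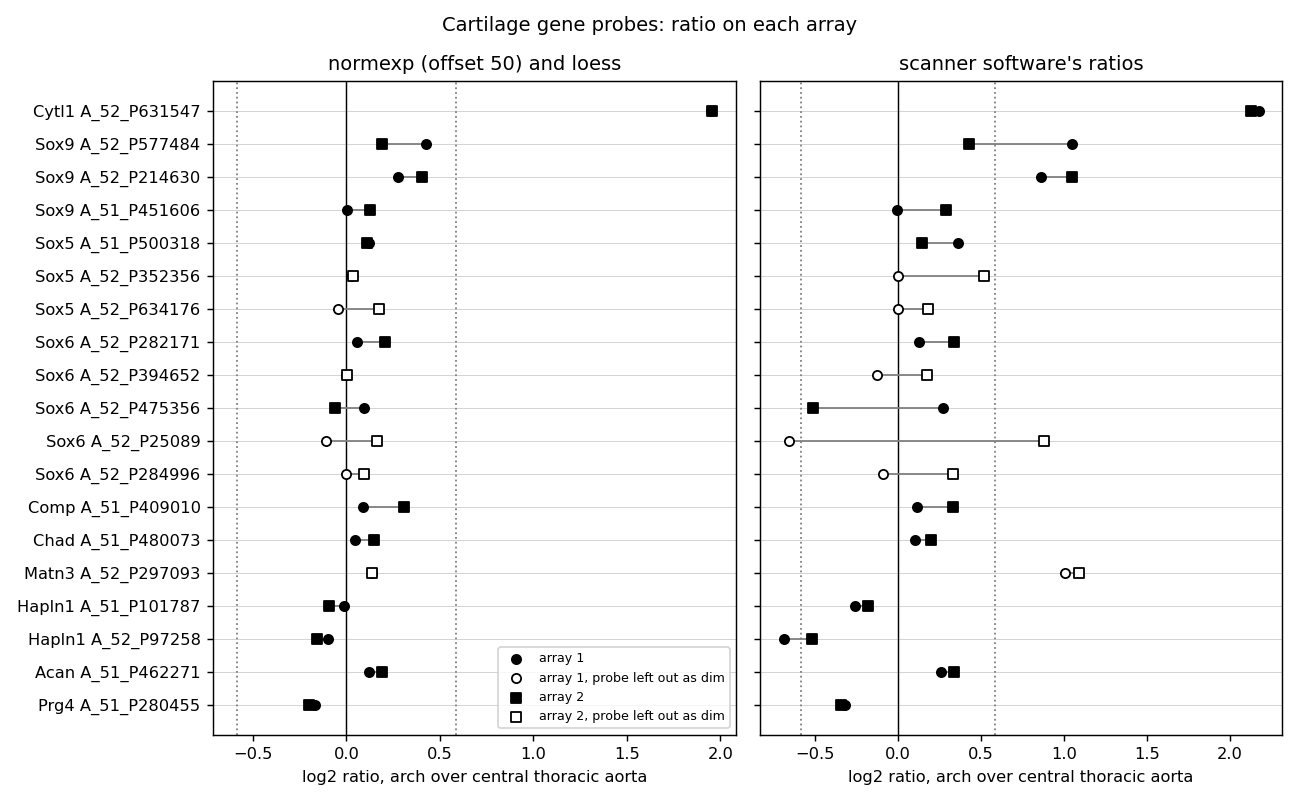
Log2 ratio of arch over central thoracic aorta of the 19 probes on array 1 (circles) and array 2 (squares), after normexp and loess (left) and as the scanner software gave it (right). Open symbols are the 6 probes left out as dim, dotted lines mark 1.5-fold, and only Cytl1 lies beyond them on the left, while on the right a Sox9 probe (A_52_P214630) and the dim Matn3 probe lie beyond them on both arrays in the same direction, a dim Sox6 probe (A_52_P25089) in opposite directions, and some other probes on 1 array.

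Among the proteins that organise cartilage fibrils, Comp had the highest ratio. Comp, a thrombospondin also made in tendon and by vascular smooth muscle, gave 630 and 716 units in the arch, against 598 and 698 units in the thoracic aorta. Its log2 ratio was 0.20 ± 0.11, from 0.09 on array 1 to 0.31 on array 2, and 0.03 ± 0.05 with each array centred on its median in place of loess. All 4 channels were far above the negative controls.

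Chad, chondroadherin, a leucine-rich protein that binds collagen and integrins, gave 116 and 155 units in the arch, against 126 and 146 units in the thoracic aorta. Its log2 ratio was 0.10 ± 0.05, and 0.0039 with median centring. Before normalisation the Cy3 channel of this probe was the brighter on each array, whichever region it held. Matn3, a matrilin of cartilage matrix, was the member without a usable probe. Its probe gave 16.5 and 31.7 units in the arch, against 25.8 and 11.1 units in the thoracic aorta.

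Only 1 of the 4 Matn3 channels, the arch on array 2, was well above background. The log2 ratio was 0.14 ± 0.0010, while the scanner software's ratio was 1.05 ± 0.04 and the ratio with no added constant 0.80 ± 0.18. These ratios rest on signals close to the negative controls and Matn3 was not called.

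Of the proteoglycan aggregate, aggrecan was slightly higher in the arch after normalisation and its link protein was near equal, neither past 1.5-fold. Acan gave 79.4 and 98.1 units in the arch, against 85.3 and 78.7 units in the thoracic aorta, and a log2 ratio of 0.16 ± 0.03. The brighter Hapln1 probe gave 17.9 and 38.1 units in the arch, against 34.9 and 29.1 units in the thoracic aorta, and -0.05 ± 0.04. These Hapln1 signals were near the negative controls. Before normalisation the Cy3 channel was the brighter on each array for both the Acan and this Hapln1 probe, whichever region it held.

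The other Hapln1 probe measured -0.13 ± 0.03, and -0.60 ± 0.09 by the scanner software's ratios, with 1 array (-0.52) short of 1.5-fold. Both Hapln1 probes were well above background in the thoracic pool on both arrays and in the arch pool on array 2 alone. Prg4, lubricin, gave 69.4 and 87.3 units in the arch, against 101 and 104 units in the thoracic aorta. Its log2 ratio of -0.19 ± 0.02 was the lowest of the 9 genes, and the arch was below the thoracic aorta in both dye orders.

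Of the list, 7 of the 9 measured genes were above 0 on both arrays and 2 were below 0 on both. Of all genes, 28.4% were above 0 on both arrays and 26.5% below. The median log2 ratio of the 9 was 0.13, and 0.12 without Cytl1, beside 0.0023 over all 21366 genes. With median centring the median of the 9 was 0.07, beside -0.04 over all genes, and with the scanner software's ratios 0.23, beside 0.0043. All 9 kept the sign of their mean under these settings and with no added constant. The agreement between arrays did not hold throughout. With median centring Comp (-0.019 and 0.087), Chad (-0.023 and 0.030) and Hapln1 (0.024 and -0.050) had opposite signs on arrays 1 and 2. Under each of them the count of genes called, each at its brightest usable probe, was 1 higher and 0 lower. The background of calls over all genes was 0.548% higher and 0.487% lower with no added constant. It was 0.711% and 0.599% with the scanner software's ratios, and 0.131% and 0.351% with median centring.

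**Figure D3:**
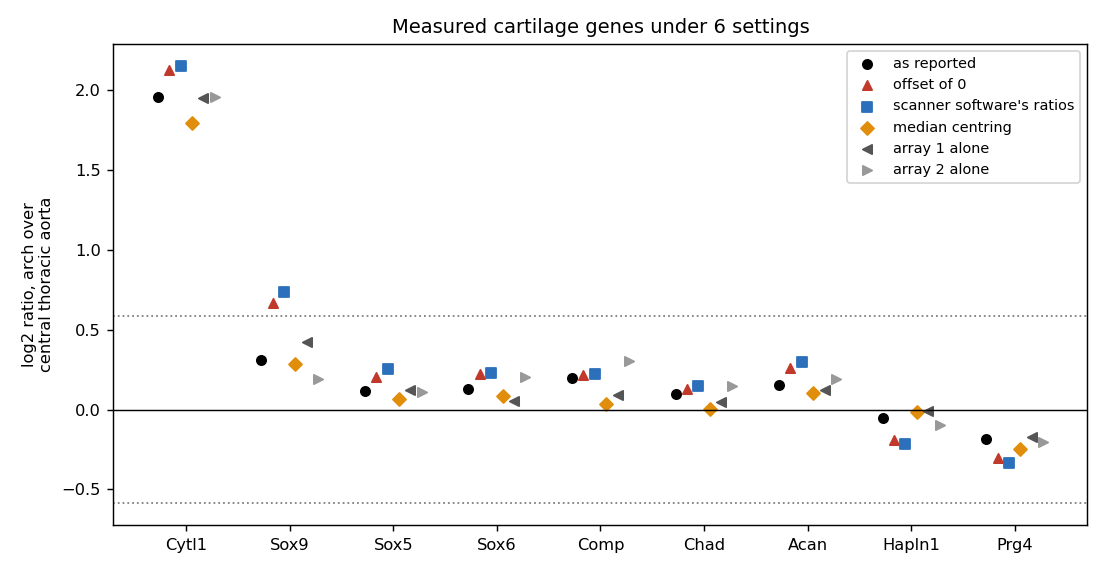
Log2 ratio of arch over central thoracic aorta of the 9 measured genes under 6 settings, with dotted lines at 1.5-fold. Cytl1 lies between 1.79 and 2.15 in all of them, Sox9 between 0.19 and 0.74, and Hapln1 and Prg4 below 0 throughout.

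Other genes of cartilage were examined in 8 lists with 88 genes, of which 79 were measured. By the rule 2 were higher in the arch and 1 lower, beside 0.257% and 0.229% of all genes, and their median log2 ratio was 0.0023, beside 0.0023 over all genes. Above 0 on both arrays were 25 of them and below 0 on both 29, beside 28.4% and 26.5% of all genes. The counts were 2 higher and 3 lower with the scanner software's ratios, beside 0.711% and 0.599% of all genes. They were the same with no added constant, beside 0.548% and 0.487%. With median centring they were 1 higher and 3 lower, beside 0.131% and 0.351%. Another scaling turned the sign of 21 of the 79.

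Among 15 measured cartilage matrix proteins, Epyc, epiphycan, a small leucine-rich proteoglycan of growth plate cartilage, was higher in the arch. Its brightest probe gave 246 and 290 units in the arch, against 86.6 and 81.9 units in the thoracic aorta, with a log2 ratio of 1.42 ± 0.12. Its other probe measured 1.61 ± 0.06. Mia, a small protein secreted by chondrocytes and by melanoma cells, was also higher, with 526 and 483 units in the arch, against 318 and 348 units in the thoracic aorta. The log2 ratio was 0.68 ± 0.03, and its other probes measured 0.59 and 0.58. With median centring Epyc was 1.32 and Mia 0.53. Mia was then short of the rule. The other 13 matrix proteins were not called and included Ogn, osteoglycin (-0.39 ± 0.08), and Fmod, fibromodulin (-0.58 ± 0.05). Fmod lay just inside the threshold and was called lower with the scanner software's ratios (-0.69), with no added constant (-0.68) and with median centring (-0.72).

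The cartilage collagens were near equal in the pools. None of 6 measured genes was called, their ratios lay between -0.03 and 0.11, and the median was 0.03 (-0.01 with median centring). Col2a1, the main collagen of cartilage, gave 4144 and 3717 units in the arch at its brightest probe, against 3894 and 4475 units in the thoracic aorta. That probe measured 0.05 ± 0.07, and -0.12 with median centring. The other Col2a1 probes were far dimmer. A_52_P216436 gave 261 and 334 units in the arch, against 249 and 335 units in the thoracic aorta, and a ratio of 0.17 ± 0.03. A_52_P564148 gave 38.0 and 44.9 units in the arch, against 43.4 and 41.8 units in the thoracic aorta, and 0.02 ± 0.18. The level of Col2a1 therefore depends on the probe. Col9a1, Col10a1, Matn1, Cnmd (chondromodulin) and Ucma, which are otherwise typical of cartilage, were well above background on both arrays in neither region.

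Of the transcription factors that act in cartilage or its precursors, Pax1 was the only one called among 15 measured. Pax1, which marks the sclerotome from which vertebrae form, gave 77.6 and 84.0 units in the arch, against 270 and 352 units in the thoracic aorta, a log2 ratio of -1.43 ± 0.18. A dim Pax1 probe, well above background in neither region, measured 0.03 ± 0.04. Others with larger values were Prrx1 (-0.40 ± 0.03, and 0.13 at another probe), Foxc2 (-0.37 ± 0.02) and Foxc1 (-0.28 ± 0.07), none past the rule.

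**Figure D4:**
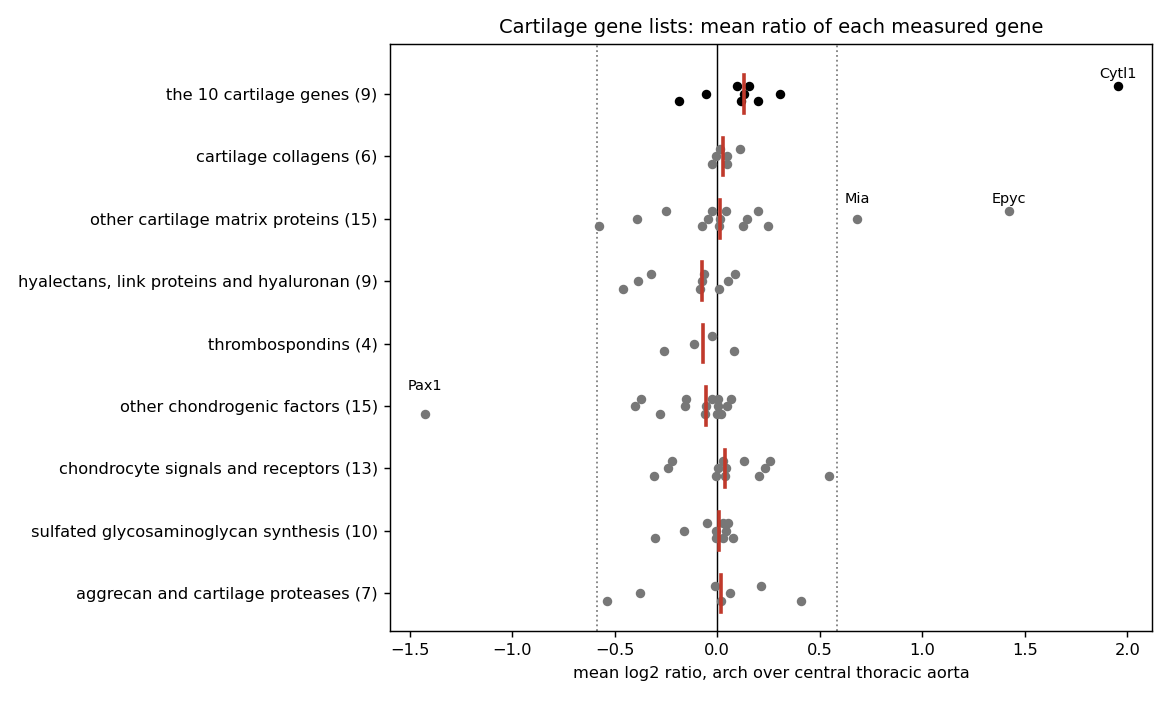
Mean log2 ratio of arch over central thoracic aorta of each measured gene in the list of 10 (black) and in 8 other lists of cartilage genes (grey), with the number measured in brackets, the list's median as a red bar and dotted lines at 1.5-fold. Named genes met the rule on each array; list medians lie between -0.07 and 0.13.

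Hyaluronan, its synthases and its binding partners gave 0 calls among 9 measured genes, with a median of -0.07 (-0.32 by the scanner software's ratios). Cd44, the hyaluronan receptor, measured -0.46 ± 0.04 with other probes at -0.39 and 0.0082, Vcan, versican, -0.39 ± 0.05 with another at 0.16, and the synthase Has1 -0.32 ± 0.01 with another at -0.01. Has1 was called lower with the scanner software's ratios (-0.91) and with no added constant (-0.74). Relatives of Comp lay between -0.26 (Thbs3) and 0.08 (Thbs4), with 0 of 4 called. Enzymes that make sulfated glycosaminoglycan chains had a median of 0.01 over 10 genes with 0 called, the lowest being the sulfotransferase Chst3 (-0.30 ± 0.10). With median centring that list's median turned to -0.14.

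Proteases that cut aggrecan and other cartilage matrix differed by member, with 0 of 7 called. Adamts5, the main aggrecanase of mouse cartilage, measured 0.41 ± 0.08 (0.10 at another probe), Adamts1 -0.54 ± 0.05 (-0.09 at another) and Mmp3 -0.38 ± 0.08. With median centring Adamts1 was called lower (-0.70). Signals and receptors of chondrocytes had 0 of 13 called and a median of 0.04. Ccn3 reached 0.54 ± 0.25, with 0.29 on array 1 and 0.79 on array 2, while the hormone-like Pthlh and its receptor Pth1r measured -0.31 ± 0.10 and -0.24 ± 0.08.

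Some marker genes of fat and heart muscle were called higher in the arch, as Cytl1, Epyc and Mia were. Of 10 markers of brown and white fat 7 were called higher in the arch and all 10 were above 0 on both arrays, with a median of 0.72, beside 0.257% of all genes called higher and 28.4% above 0. With median centring 1 of the 10 (Cox7a1) was called and the median was 0.57. Their summed signal was 37730 units (Cy5) and 31265 units (Cy3) in the arch pool, against 23204 units (Cy3) and 31638 units (Cy5) in the thoracic pool. Fabp4, which was not called (0.34 ± 0.09), supplied most of that signal. It gave 24191 and 18768 units in the arch, against 15597 and 21998 units in the thoracic aorta. Of 7 measured markers of heart muscle 3 were called higher (Myl7, Tnnt2 and Sln), with a median of 0.28, and Myh6 was not well above background. Their summed signal was 14857 and 12904 units in the arch, against 12064 and 18192 units in the thoracic aorta. Most of that sum was Actc1, cardiac actin, at a log2 ratio of -0.05, while the 3 called genes summed to 1052 and 1060 units in the arch, against 277 and 281 units in the thoracic aorta. All 7 mesothelium markers were above 0 on both arrays with none called, a median of 0.41, and a summed signal of 1631 and 1807 units in the arch, against 1239 and 1404 units in the thoracic aorta. With the scanner software's ratios 3 mesothelium markers were called higher (Upk3b, Krt19 and Wt1), beside 0.711% of all genes, and the median was 0.70. With median centring 0 mesothelium markers were called and the median was 0.32. The sums are not normalised between the dyes. Smooth muscle markers had a median of -0.05 over 8 genes with 0 called, which was -0.10 without the saturated Acta2 and Tagln and -0.21 with median centring. All 6 macrophage markers were below 0 on both arrays with 0 called and a median of -0.23, beside 26.5% of all genes below 0. Adventitial fibroblast markers (7 genes, median 0.04), nerve and Schwann cell markers (5, 0.04) and endothelial markers (7, 0.06) had 0 called. The highest adventitial ratios were those of Lum and Pdgfra, both 0.55. The part of these tissues in the ratio of Cytl1 was not tested.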

How the data were processed

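The submitters' processing notes name Agilent Feature Extraction 9.1.1.1. Per the file headers, the deposited files hold an intensity per spot and dye, as mean signal and as local background. They also hold the log10 ratio (Cy5 over Cy3) that the authors' scanner software computed. The deposited value table matched that log10 ratio on each array for 99.9% of features once signs were turned (tolerance 0.0001), with medians of 0.

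In R 4.3.3, limma 3.58.1 corrected the intensities (normexp, offset 50) and normalised ratios within arrays (loess, control spots at weight 0). Control spots and outlier spots (20 and 4) were left out, array 2 was turned to arch over thoracic aorta, and spots of a probe were averaged. Of 41150 probes 30520 were usable, that is, at least 1 region was flagged well above background on array 1 and again on array 2. Symbols came from RefSeq's gene table (GRCm38.p6), used for names only. The arrays are a technical dye swap of 1 pool per region and count as 1 replicate, so no p-value is given, and precision is limited by their number. The rules were tested on simulated dye-swap data, with changes set only in spots well above background in every channel. That test does not speak for dim probes or for differences between pools.

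Members and gene lists were chosen with earlier results of these data known. Every member is named with all probes; of other lists, genes that met the rule and up to 4 with the largest ratios; for Cytl1, the 3 genes next above and below it where there are that many.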

Additional observations from a re-analysis of the deposited data

How the results depend on the processing

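Cytl1 was the only measured gene of the list called, with 1 higher and 0 lower, under all 11 alternatives (Matn3 was measured only with no filter on dim probes), and its log2 ratio stayed between 1.79 (median centring) and 2.15 (scanner software's ratios). Over all genes 55 were called higher in the arch and 49 lower. With no offset these counts were 117 and 104. Scanner ratios, like the series' value table, made them 152 and 128, and a 1.3-fold rule 134 and 112. A 2-fold rule gave 9 and 15. Median centring gave 28 and 75, a split with 27.2% higher, against 52.9% after loess. On single arrays the counts were 72 to 81 and 62 to 67. The median of the measured genes, 0.13, was 0.21 with an offset of 0, 0.23 with the scanner software's ratios and with the value table, 0.067 with median centring, and 0.090 to 0.19 on each array alone. Sox9 was 0.67 with an offset of 0, 0.74 with the scanner software's ratios and 0.24 as the mean of its probes. The offset adds a constant to each signal by construction, which shrinks ratios of dim probes; the cause of other shifts was not tested. No paired analysis was possible because both arrays carry the same pools. With 1 pool per region no value has a biological replicate check. The probes of Matn3 and Hapln1, and most of those of Sox5 and Sox6, were not well above background in every channel.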

Other observations

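Skeletal genes outside cartilage were also examined, and none was called after loess with the offset of 50. Of 4 measured bone genes, Alpl, the tissue phosphatase that allows mineral to form, measured 0.49 ± 0.02 and Spp1, osteopontin, 0.48 ± 0.02 on the log2 scale, while the bone transcription factor Sp7 was 0.01 and Dmp1 -0.02. Ibsp and Bglap, which mark mature bone cells, were well above background on both arrays in neither region. Of 5 tendon genes, the transcription factor Scx measured 0.31 ± 0.04, and Tnmd, tenomodulin, and the factor Mkx measured -0.25 ± 0.01 and -0.16 ± 0.10. With the scanner software's ratios Alpl was 0.69 and Spp1 0.79, both called higher, beside 0.711% of all genes. Both were also called higher with an offset of 0, beside 0.548% of all genes. With median centring neither was called (Alpl 0.39 and Spp1 0.40). By the scanner software's ratios Scx was 0.36, Tnmd -0.54 and Mkx -0.47.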
